A study of Homo sapiens with 37 samples.

Results

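The messenger RNAs described here encode proteins of the large subunit of the cytosolic ribosome, that is, the RPL proteins and the stalk proteins RPLP0, RPLP1 and RPLP2. They were chosen by a list of 45 Ensembl gene IDs, matched without their version number, out of 60483 IDs in each of 2 count tables. The list was set by gene identity and its rule uses no measured value, although the family was picked for description with earlier results of these data known. All 45 members were found in both tables, and all 45 passed the filter on low counts in every comparison; in some fits with fewer libraries, used as alternatives, 44 did. The files pair no ID with a gene name, so a single member is named by its ID, and the roles of single proteins in the ribosome are not given beside its values.

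The libraries came from HEK293T cells, an established human embryonic kidney line, that carried an APEX fusion. APEX is a peroxidase that, given biotin-phenol and hydrogen peroxide, attaches biotin to RNA close to it. Cells received 500 µM biotin-phenol for 30 min and 1 mM H2O2 for 1 min, and biotinylated RNA was bound to streptavidin beads (the pulldown) and compared with RNA from before that step (the input). The question put by the design was which RNAs lie close to each fusion protein, and how that changes in stressed cells.

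One table held 20 libraries of naive, that is unstressed, cells: 2 inputs and 2 pulldowns for each of the fusions APEX-GFP, APEX-CBX1, APEX-eIF4A, APEX-eIF4E and C1-APEX. CBX1 is a heterochromatin protein, eIF4E binds the mRNA cap, eIF4A is the helicase that works with it in translation initiation, and GFP has no such partner. The labels do not say what C1 stands for. The other table held 17 libraries, all of cells with APEX-eIF4A: T0 (naive), T20 and T4 under heat shock, hip (hippuristanol, a small molecule that inhibits eIF4A) and its solvent DMSO. T0, T20 and hip had 2 inputs and 2 pulldowns each, T4 had 1 of each, and DMSO had 1 input and 2 pulldowns. The hip inputs carry a heat shock label and were grouped by title, and the unit of T is not given. Nothing in the labels says that replicates came from separate cultures; p-values therefore measure only a spread between libraries that may be technical. They also do not say whether a construct was carried by 1 clone or by a mixed population.

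Ribosomal protein mRNAs are among the most abundant and most actively translated messages of a growing cell. In vertebrates they belong to the TOP class, named for a 5′ terminal oligopyrimidine tract: transcription starts at a C that an unbroken run of C and T follows. The tract lies next to the cap that eIF4E binds, and through it translation of the whole class is turned down together when growth signalling falls.

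The feature that defines this class can be seen at the start sites that RefSeq gives on GRCh38.p14. The windows are shown because the tract is the shared property by which these messages are grouped, and they describe the gene family, not single IDs of the count tables. Each window has the 15 bases before the start and the 15 bases from it on, written 5′ to 3′ on the transcribed strand. Capitals mark the tract, from the first transcribed base to the last pyrimidine before a purine, where it begins with C and holds at least 5 bases.

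RPLP0, the scaffold of the stalk (chr12:120201097-120201126, minus strand): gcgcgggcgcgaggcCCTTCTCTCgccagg
RPLP1, a stalk protein (chr15:69452803-69452832, plus strand): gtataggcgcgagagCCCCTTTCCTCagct
RPLP2, its partner (chr11:809952-809981, plus strand): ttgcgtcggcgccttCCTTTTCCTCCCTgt
RPL35, at the rim of the exit tunnel (chr9:124861943-124861972, minus strand): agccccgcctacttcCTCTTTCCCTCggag
RPL26, also near the exit tunnel (chr17:8383179-8383208, minus strand): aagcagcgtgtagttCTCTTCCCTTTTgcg
RPL7A (chr9:133348203-133348232, plus strand): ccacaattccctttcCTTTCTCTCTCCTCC
RPL13A (chr19:49487593-49487622, plus strand): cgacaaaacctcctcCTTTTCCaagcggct
RPL28 (chr19:55385917-55385946, plus strand): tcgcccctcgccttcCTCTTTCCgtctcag
RPL3, at the peptidyl transferase centre (chr22:39319609-39319638, minus strand): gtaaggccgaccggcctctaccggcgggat
RPL4, a protein of the exit tunnel (chr15:66504841-66504870, minus strand): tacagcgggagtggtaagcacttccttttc

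The first 8 of these starts begin with C and go on with at least 4 further pyrimidines, with tracts of 7 to 16 bases, of which the one in RPL7A runs past the window. The annotated starts of RPL3 and RPL4 do not: RPL3 has a tract of 4 bases and RPL4 begins with a purine. Over the family, 28 of 38 genes with a promoter entry (73.7%) had at least one start of this kind, against 960 of 15805 other protein-coding genes (6.07%). Counted by start, it was 28 of 50 (56%) against 980 of 22149 (4.42%). The search was for C at the first base with at least 4 pyrimidines after it, on the transcribed strand only, since the tract is read in the RNA. A match describes the annotated start and no more, and a start without one says only that these letters are not there.

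Totals were 1419968 to 2629957 counts in naive inputs, 1718517 to 3276410 in naive pulldowns, 4540426 to 7782943 in stress inputs and 707356 to 1221213 in stress pulldowns. The 45 members together took 8405 to 16001 counts of a naive input and 6679 to 24900 of a naive pulldown, with a median member at 107 to 406 counts over naive libraries. In the stress table they took 130653 to 219559 counts of an input but 9846 to 19830 of a pulldown. The 10 highest IDs, none of them a member, held 68.6% to 75.3% of naive inputs and 55.6% to 70.0% of naive pulldowns, against 3.43% to 7.80% of stress inputs and 25.6% to 44.1% of stress pulldowns. The C1 pulldowns stood apart from each other, with a correlation of 0.761 between replicates across tested IDs (IDs are not independent replicates), against 0.904 to 0.954 for the other naive groups. Levels are given as CPM, read counts relative to a library size scaled by TMM, a method that takes most IDs as unchanged, and levels of different members are not compared because no transcript lengths were used.

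In every naive library the members were far above the typical tested ID, and that lead was smaller in pulldowns than in inputs. The lead is the median log2 CPM of the 45 members minus the median of the other tested IDs of the same library, so it hardly depends on how libraries are scaled to each other. In CBX1 it was 3.21 and 3.07 in the inputs and 2.49 and 2.57 in the pulldowns. In C1 it was 3.32 and 3.12 in the inputs and 2.26 and 2.48 in the pulldowns. GFP libraries had 3.13 and 3.23 in the inputs against 2.52 and 2.42 in the pulldowns. In each of these constructs both pulldowns lay below both inputs by more than the replicates differed. eIF4E inputs stood at 3.55 and 3.61 and its pulldowns at 2.66 and 3.16, so the pulldowns lay lower but apart from each other. eIF4A inputs stood at 3.70 and 3.58 and its pulldowns at 3.11 and 2.88. The eIF4E and eIF4A libraries thus had a larger lead than GFP in both fractions. In bulk RNA of this kind, fewer labelled cells and less labelled RNA per cell cannot be told apart.

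**Figure D1:**
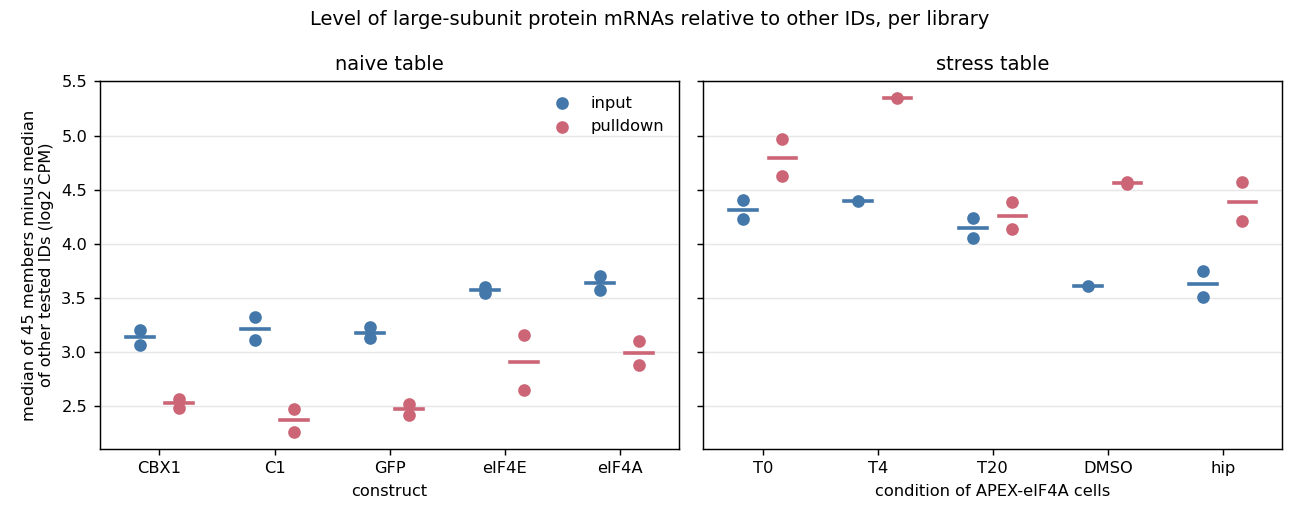
Lead of the 45 members over other tested IDs in each library (median log2 CPM of members minus median of other tested IDs), with naive constructs on the left and conditions of APEX-eIF4A cells on the right; points are libraries and bars are group means. In naive cells both pulldowns of every construct lay below both inputs, whereas the group means of stress-table pulldowns lay above those of the inputs, from 4.26 against 4.15 at T20 to 5.35 against 4.39 at T4.

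Pulldown over input was tested for each construct with edgeR's quasi-likelihood test, and an ID is called where the Benjamini-Hochberg adjusted p over all 12427 IDs is under 0.05. In CBX1, 29 of 45 members were called and all 29 were lower in the pulldown, against 2.31% of all IDs called lower. In C1 it was 29 of 45, all lower, against 3.56%, and in GFP 31 of 45, all lower, against 2.09%. In eIF4E 14 of 45 were called, all lower, against 1.29% of all IDs, and in eIF4A 15 of 45, all lower, against 1.02%. No member was called higher in any construct, where 1.6%, 2.89%, 1.95%, 1.22% and 1.16% of all IDs were called higher in the same order of constructs.

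The scaling decides the direction in part of this. Dividing by library size in place of TMM moved the median of all other IDs to 0.41 in CBX1, 0.18 in C1, 0.25 in GFP, 0.89 in eIF4E and 0.83 in eIF4A (log2 fold change). With that scaling 6, 17 and 13 members were called lower in CBX1, C1 and GFP, but in eIF4E and eIF4A the direction flipped, with 13 and 8 members called and all of them higher. The share of all IDs called with that scaling is not set beside these counts, so they describe the scaling and not the members. The position of the members relative to other IDs did not flip. With TMM the median member stood at a log2 fold change of -0.71 in CBX1, -0.73 in C1, -0.77 in GFP, -0.62 in eIF4E and -0.57 in eIF4A. The median of other IDs was between 0.00 and 0.03, so the member median lay 0.60 to 0.77 below it. In eIF4E this difference, -0.64, went to -0.37 without pulldown replicate 1 and to -0.82 without pulldown replicate 2. Against other IDs whose mean log2 CPM was 5 or more, a set closer to the members in level and chosen after seeing the data, the differences were -0.62, -0.68, -0.80, -0.68 and -0.62.

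**Figure D2:**
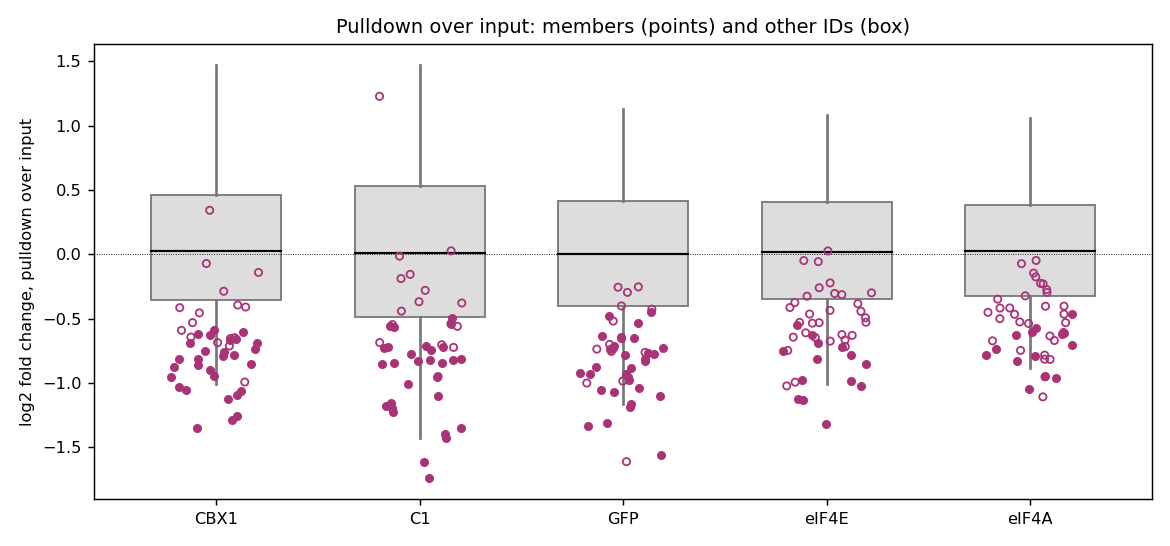
Fitted log2 fold change of pulldown over input for the 45 members (points, filled where called) and for the other tested IDs (box from the lower to the upper quartile with the median, lines to the 5th and 95th percentiles), by construct with TMM scaling. Most members lay under the lower quartile of other IDs, 41 in CBX1, 36 in C1, 42 in GFP, 36 in eIF4E and 37 in eIF4A; with library size scaling the medians of members and of other IDs in eIF4E and eIF4A both move above 0.

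The number of calls rested on all libraries being there. Leaving out 1 library in turn gave 8 to 19 calls in CBX1, 11 to 39 in C1, 13 to 18 in GFP, 1 to 23 in eIF4E and 0 to 7 in eIF4A. In C1 the count was 39 without pulldown replicate 2 and 11 to 16 without any other library, and in CBX1 and GFP it was lower whichever library was left out. In eIF4A, no member was called without input replicate 1 or without pulldown replicate 2, and in eIF4E 1 was called without input replicate 2 or without pulldown replicate 1. Fitted on the libraries compared alone, C1 had 0 calls and eIF4A 33. The share of all IDs called in these fits is not set beside the counts, so their changes are not results about the members. The member median stayed below that of the other IDs in each of these fits.

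Libraries of the 2 fractions did not overlap for most members. Both pulldowns lay below both inputs for 42 of 45 members in CBX1 (24.7% of all IDs), 39 in C1 (23.4%), 44 in GFP (25.5%), 39 in eIF4E (21.6%) and 41 in eIF4A (22.8%). The opposite order, both pulldowns above both inputs, was seen for 1 member in C1 (22% of all IDs) and for 0 in CBX1 (26.5%), GFP (24.6%), eIF4E (24%) and eIF4A (26%).

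The members called lower were partly shared between constructs, and how often other IDs were shared in this way was not counted. Across the 5 constructs, whose fold changes share no library, 10 members were called lower in all 5, 15 in at least 4, 22 in at least 3, 31 in at least 2 and 40 in at least 1, while 5 were called in none. In each of the 10 pairs of constructs the fold changes correlated over the 45 members, with Pearson's r from 0.30 (C1 with eIF4A) to 0.80 (eIF4E with eIF4A). Without the member with the fewest counts r ran from 0.28 (CBX1 with C1, 0.50 with it) to 0.81 (eIF4E with eIF4A). These correlations describe points that share their genes, their level and the fit. The spread among members was widest in C1, where the SD of the log2 fold change was 0.49, against 0.26 to 0.32 in the others. A member's fold change correlated with its input level at r of 0.38 in GFP, 0.44 in eIF4E and 0.49 in eIF4A, with Spearman's rho of 0.44, 0.45 and 0.48. In CBX1 r was -0.25 and rho -0.05, and in C1 r was -0.16 and rho 0.18, so the sign there depends on the measure.

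**Figure D3:**
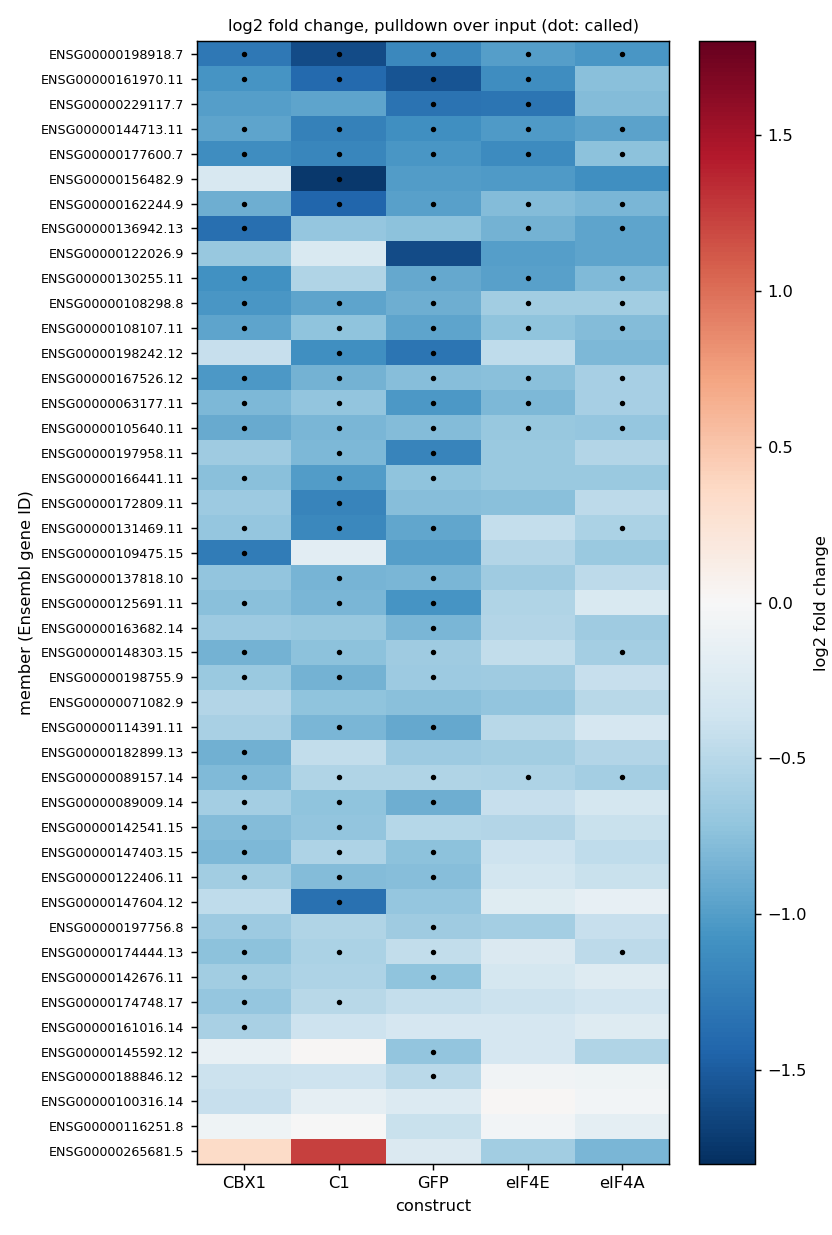
Log2 fold change of pulldown over input (colour) for each of the 45 members (rows, ordered by their mean over constructs) in each construct (columns), with TMM scaling; a dot marks a call at an adjusted p under 0.05. The top rows are blue in all 5 columns, while the lowest rows are near 0 in some columns. The member with the fewest counts stands at 1.23 in C1. With library size scaling the eIF4E and eIF4A columns shift upward as a whole.

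ENSG00000198918.7 had the lowest mean log2 fold change over constructs, -1.22, and was called in all 5. Its level was 84.3 and 71.0 CPM in CBX1 inputs against 33.8 and 29.5 CPM in CBX1 pulldowns, and 72.0 and 64.6 against 15.9 and 27.8 CPM in C1. In GFP it was 65.4 and 72.8 against 24.3 and 37.1 CPM. Every pulldown of these constructs lay below every input of theirs. The level in eIF4E inputs was 98.2 and 97.9 CPM against 43.0 and 55.6 CPM in the pulldowns, and in eIF4A 99.2 and 71.9 against 46.3 and 34.7 CPM, again without overlap. The log2 fold change was -1.29 (SE 0.23, adjusted p = 0.0012) in CBX1, -1.62 (SE 0.26, adjusted p = 0.00038) in C1 and -1.05 (SE 0.22, adjusted p = 0.0079) in eIF4A.

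ENSG00000108298.8 had the lowest adjusted p of the members in CBX1 and GFP and was also called in all 5. Its inputs held 214 and 223 CPM in CBX1, 198 and 196 in GFP and 270 and 260 in eIF4A. The pulldowns held 108 and 102, 102 and 113, and 176 and 166 CPM in the same order. Replicates were close to each other, and no pulldown reached an input of its construct. The log2 fold change was -1.05 (SE 0.13, adjusted p = 2.2e-05) in CBX1, -0.88 (SE 0.13, adjusted p = 0.00021) in GFP and -0.63 (SE 0.13, adjusted p = 0.0056) in eIF4A.

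ENSG00000144713.11 was called in all 5 as well, with log2 fold changes between -1.22 and -0.95. In eIF4E it stood at 180 and 230 CPM in inputs against 79.4 and 122 CPM in pulldowns, and in GFP at 143 and 156 against 66.6 and 72.5 CPM. The fractions did not overlap in either. The log2 fold changes were -1.02 (SE 0.20, adjusted p = 0.0031) and -1.10 (SE 0.21, adjusted p = 0.0018).

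ENSG00000136942.13 was the lowest member in CBX1, with 97.5 and 95.8 CPM in inputs against 36.4 and 39.4 in pulldowns. The log2 fold change was -1.35 (SE 0.23, adjusted p = 0.00058). In C1 and GFP the same member stood at -0.70 and -0.74 and was not called, with an adjusted p of 0.065 in both. It was also called lower in eIF4E and eIF4A, so in 3 of the 5 constructs, and its log2 fold change was negative in all 5. Its means were 112 CPM in eIF4E inputs against 61.9 in pulldowns, and 115 against 58.7 CPM in eIF4A.

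Other low members differed more between constructs. ENSG00000161970.11 went from 71.7 and 72.8 CPM to 27.7 and 21.4 CPM in GFP (log2 fold change -1.56, SE 0.27, adjusted p = 0.00072). In eIF4A it went from 67.8 and 71.4 to 41.8 and 41.5 CPM, and that difference was not called (adjusted p = 0.15). ENSG00000156482.9 was the lowest member in both C1 and eIF4A but was called in C1 alone. Its C1 inputs held 25.8 and 24.7 CPM and the C1 pulldowns 3.84 and 10.7 CPM, so the pulldowns lay lower but far apart from each other. In CBX1 it stood at 15.7 and 15.8 against 12.5 and 13.4 CPM, a log2 fold change of -0.29 (adjusted p = 0.81). ENSG00000122026.9, a member with few counts, was the lowest in GFP at -1.61 and missed the threshold (adjusted p = 0.065). It stood at 12.3 and 11.9 CPM in GFP inputs and 4.38 and 3.49 CPM in GFP pulldowns.

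A few members stayed near the typical ID in some constructs, though not in all. ENSG00000100316.14 was not called in any construct and stood at a log2 fold change of 0.03 in eIF4E and -0.05 in eIF4A. Its level was 452 and 450 CPM in eIF4E inputs against 438 and 481 CPM in pulldowns, and 514 and 455 against 480 and 455 CPM in eIF4A, so the fractions overlapped in both. In CBX1 it was 373 and 317 CPM in inputs against 250 and 268 CPM in pulldowns, without overlap, at a log2 fold change of -0.41 (SE 0.13, adjusted p = 0.064). ENSG00000116251.8 was likewise called in none. It stood at 69.8 and 77.0 against 70.5 and 69.3 CPM in CBX1 and at 101 and 118 against 104 and 108 CPM in eIF4E, with overlap in both. In GFP its mean was 73.2 CPM in inputs against 55.5 CPM in pulldowns. Its lowest log2 fold change over constructs was -0.40. ENSG00000145592.12 was called lower in GFP, from 128 and 120 to 68.6 and 82.5 CPM (log2 fold change -0.71, SE 0.18, adjusted p = 0.020). In C1 it was 131 and 136 CPM against 156 and 117 CPM, with overlapping fractions and a log2 fold change of 0.03. In eIF4A its mean was 162 CPM in inputs against 111 CPM in pulldowns.

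ENSG00000265681.5 had the fewest counts of the members, 1 to 24 per naive library. Its log2 fold change in C1, 1.23 (SE 0.67, adjusted p = 0.28), rests on 5 and 5 counts in the inputs and 11 and 24 in the pulldowns. Values of this member are not precise enough to place it above or below the others.

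Whether an RNA is enriched near a fusion protein, beyond what any APEX protein labels, is addressed by comparing a construct's pulldown over input with that of GFP. In this input-adjusted comparison no member was called in CBX1, C1, eIF4E or eIF4A by edgeR (0.161%, 0%, 0% and 0% of all IDs), and none by DESeq2. At an unadjusted p under 0.05 it was 2, 1, 5 and 5 of 45 members, against 912, 1045, 472 and 411 of 12427 IDs. The 4 comparisons share the GFP libraries, so they are not independent of each other. The median member stood at a log2 difference of 0.10 in CBX1, 0.03 in C1, 0.20 in eIF4E and 0.23 in eIF4A, beside 0.02, -0.01, 0.03 and 0.04 for other IDs. Values above 0 were found for 25, 24, 37 and 40 members. These small differences moved with single libraries. Leaving out 1 library in turn took the member median minus that of other IDs from 0.08 to between -0.09 and 0.09 in CBX1, from 0.04 to between -0.11 and 0.24 in C1, from 0.17 to between -0.01 and 0.37 in eIF4E and from 0.19 to between 0.14 and 0.29 in eIF4A. The lowest values came without GFP pulldown replicate 2 in CBX1, without C1 pulldown replicate 2 in C1 and without eIF4E pulldown replicate 2 in eIF4E.

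For the members at the ends of these comparisons the standard errors were large. In eIF4A over GFP the highest was ENSG00000161970.11 at 0.81 (SE 0.37, unadjusted p = 0.037, edgeR adjusted p over all IDs = 1.0). ENSG00000125691.11 stood at 0.79 (SE 0.25, unadjusted p = 0.0043) in the same comparison. Its eIF4A inputs held 144 and 141 CPM and the pulldowns 125 and 111, while GFP inputs held 169 and 168 and GFP pulldowns 85.6 and 75.1 CPM. The fractions did not overlap in either construct, and the gap was wider in GFP. At the low end of CBX1 over GFP, ENSG00000136942.13 stood at -0.62 (SE 0.32, adjusted p = 0.70).

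The 2 fractions were then set against GFP one at a time, a comparison added after the data were seen. In pulldowns, 18 of 45 members were called higher in eIF4A (0.909% of all IDs called higher) and 17 in eIF4E (2.74%). C1 had 3 called higher (3.29%), and CBX1 had 0 by edgeR and DESeq2 (0.7%), with 3 members and 1704 of 12427 IDs at an unadjusted p under 0.05. No member was called lower in any of the 4. Of all 12427 IDs, 103 were called lower in CBX1, 424 in C1, 337 in eIF4E and 91 in eIF4A. The median member stood at 0.62 in eIF4A and 0.54 in eIF4E, at 0.05 in C1 and at 0.00 in CBX1, beside other-ID medians of -0.00, 0.01, 0.01 and 0.01. Both pulldowns lay above both GFP pulldowns for 38 members in eIF4A (23.6% of all IDs) and 32 in eIF4E (24.8%).

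Inputs, which were not selected for labelled RNA, showed the same direction with TMM scaling. In inputs 4 members were called higher than GFP in eIF4A (0.346% of all IDs) and 6 in eIF4E (1.34%), and 0 in CBX1 (0.0241%) and C1 (0.169%) by edgeR and by DESeq2. At an unadjusted p under 0.05 the CBX1 and C1 inputs had 0 and 4 members and 569 and 1047 IDs. The input medians of the members were 0.38 in eIF4A and 0.35 in eIF4E, with both libraries above both GFP inputs for 32 (22.7%) and 33 (25.8%) members. With library size in place of TMM these input medians went to 0.00 and -0.02 while other IDs went to -0.38 and -0.36, so the members stayed above the other IDs. In that scaling 1 member was called in each, higher in eIF4E and lower in eIF4A. The share of all IDs called is not set beside these 2 calls, so they are not results about the members.

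ENSG00000130255.11 was high in both fractions. Its inputs held 70.8 and 81.1 CPM in GFP, 145 and 142 in eIF4A and 156 and 164 in eIF4E, and its pulldowns held 38.9 and 41.1, 92.1 and 73.2, and 71.3 and 90.9 CPM. Both initiation factor constructs lay above GFP in each fraction without overlap. The log2 fold change of eIF4A over GFP was 0.92 (SE 0.16, adjusted p = 0.0055) in inputs and 1.05 (SE 0.17, adjusted p = 0.0014) in pulldowns. For eIF4E it was 1.07 (SE 0.16, adjusted p = 0.00019) and 1.02 (SE 0.17, adjusted p = 0.00056). The input-adjusted difference was accordingly small, 0.13 (SE 0.24) in eIF4A and -0.05 (SE 0.24) in eIF4E.

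ENSG00000145592.12 and ENSG00000197958.11 had their larger difference from GFP in the pulldowns, although the difference between the fractions was not called for either. ENSG00000145592.12 was at 152 and 163 CPM in eIF4E pulldowns against 68.6 and 82.5 in GFP pulldowns, a log2 fold change of 1.06 (SE 0.17, adjusted p = 0.00049). Its inputs stood at 165 and 220 against 128 and 120 CPM, and gave 0.64 (SE 0.17, adjusted p = 0.040). ENSG00000197958.11 was at 67.6 and 56.4 CPM in eIF4A pulldowns against 27.2 and 30.6 in GFP pulldowns (1.10, SE 0.24, adjusted p = 0.013). Its inputs stood at 85.4 and 92.5 against 66.7 and 65.0 CPM and were not called (adjusted p = 0.62). ENSG00000100316.14 was at 480 and 455 CPM in eIF4A pulldowns and 438 and 481 in eIF4E pulldowns against 298 and 276 in GFP pulldowns, with adjusted p of 0.0029 and 0.0013.

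These counts also leaned on single libraries. Without eIF4A pulldown replicate 1 no member was called in eIF4A pulldowns over GFP, and without GFP pulldown replicate 2 there was 1 in eIF4A and 3 in eIF4E. Over these fits the member median stayed 0.54 to 0.70 above that of other IDs in eIF4A and 0.35 to 0.74 above it in eIF4E. The share of all IDs called is not set beside any count of this paragraph, so changes in the counts are not results about the members. The count in inputs of eIF4A went to 0 when any of the 4 libraries compared was left out and to 26 when those 4 were fitted alone.

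**Figure D4:**
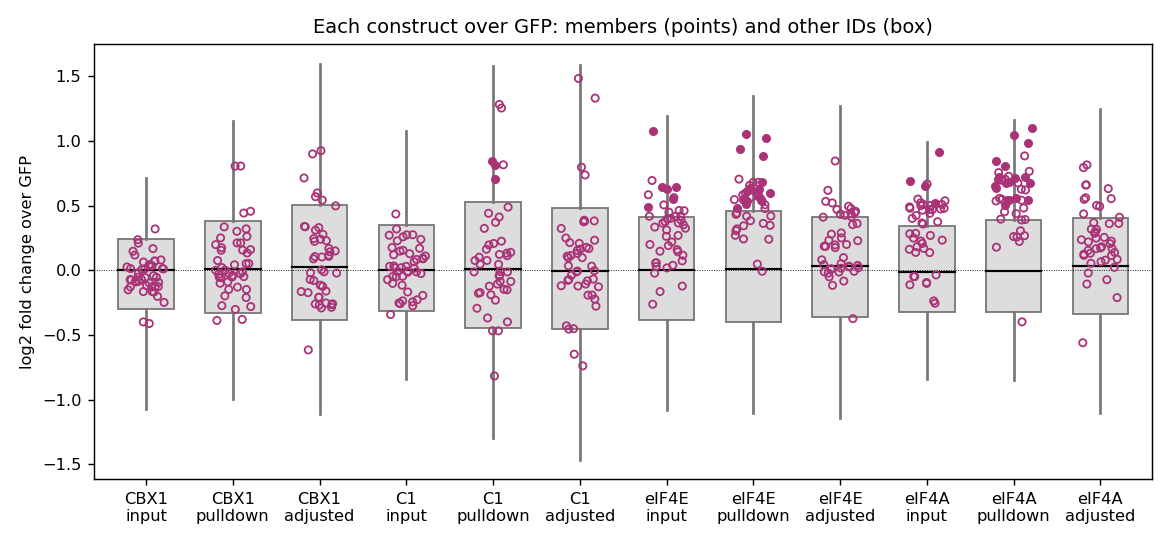
Fitted log2 fold change of each construct over GFP for the 45 members (points, filled where called) and other tested IDs (box from lower to upper quartile, lines to the 5th and 95th percentiles), in inputs, in pulldowns and input-adjusted, with TMM scaling. In eIF4E and eIF4A the members lie above the median of other IDs in inputs (41 and 37 of 45) and pulldowns (44 and 44), and no input-adjusted point is filled; with library size scaling the input medians of members move to about 0 and those of other IDs below it.

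As a share of all counts the order of the fractions differed between constructs. The members took 0.576% of counts in inputs of CBX1 and C1, 0.611% in GFP, 0.602% in eIF4E and 0.612% in eIF4A. In pulldowns they took 0.456% in CBX1 ± 0.046, 0.406% in C1 ± 0.036 and 0.450% in GFP ± 0.066, but 0.786% in eIF4E ± 0.173 and 0.771% in eIF4A ± 0.016 (SD, n = 2 each). The share was thus lower in the pulldown for 3 constructs and higher for the other 2, a contrast that was not tested. With the 10 highest IDs set aside, the mean was lower in the pulldown of all 5: 1.90% in inputs against 1.23% in CBX1, 2.02% against 1.27% in C1, 1.98% against 1.24% in GFP, 2.32% against 1.82% in eIF4E and 2.42% against 1.92% in eIF4A. The 10 highest IDs took 73.0% to 75.3% of eIF4E and eIF4A inputs and 55.6% to 61.9% of their pulldowns. Their part in the higher raw share was not tested beyond this.

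Heat shock was compared as T20 over T0 in cells with APEX-eIF4A. In inputs no member was called by edgeR (0.817% of 20438 IDs called) or by DESeq2, and 0 members had an unadjusted p under 0.05, against 2923 IDs. The median member stood at a log2 fold change of -0.14, beside -0.02 for other IDs. Without T20 input replicate 2 the difference between these medians turned from -0.13 to 0.03, and over the other libraries left out it lay between -0.21 and -0.16. That order turned against other IDs at a mean log2 CPM of 5 or more, whose median was -0.27. Both T20 inputs lay below both T0 inputs for 6 members (19.6% of all IDs) and above them for 3 (25.9%).

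In the eIF4A pulldowns of heat-shocked cells no member was called against T0. The edgeR test called 0 of 45 (0.58% of 14839 IDs) and DESeq2 0. At an unadjusted p under 0.05 it was 5 members against 1034 IDs. The median member stood at -0.28 and the other IDs at 0.09. Both T20 pulldowns lay below both T0 pulldowns for 20 members (14.5% of all IDs) and above them for 4 (19.8%). Input-adjusted, no member was called by either tool (0% of 16678 IDs), 1 member had an unadjusted p under 0.05 against 1226 IDs, and the medians were -0.18 and 0.20. The gap between the medians was -0.37 in pulldowns and ranged from -0.80 (without T0 pulldown replicate 1) to -0.28 (without T20 pulldown replicate 1) when 1 library was left out. Input-adjusted it was -0.38, and ranged from -0.76 without T0 pulldown replicate 1 to -0.11 and -0.04 without T20 pulldown replicates 1 and 2. The members' share of all pulldown counts was 1.59% ± 0.28 at T0 and 1.70% ± 0.06 at T20 (SD, n = 2 each), a difference within the spread at T0 and opposite in sign to that of the median member.

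ENSG00000131469.11 was the lowest member in both comparisons. It stood at 301 and 540 CPM in T0 pulldowns and 102 and 262 CPM in T20 pulldowns, so the groups did not overlap but replicates differed about as much as the groups did. Inputs stood at 160 and 144 CPM at T0 and 182 and 143 at T20. The log2 fold change was -1.25 (SE 0.42, unadjusted p = 0.0027, adjusted p = 0.22) in pulldowns and -1.30 (SE 0.58, adjusted p = 0.68) input-adjusted. ENSG00000197958.11 went the other way without being called, with 109 and 71.7 CPM at T0 and 159 and 195 at T20 in pulldowns (0.92, SE 0.58, adjusted p = 0.82). ENSG00000100316.14 held 1555 and 2174 CPM at T0 and 1255 and 1284 at T20 in pulldowns (-0.60, SE 0.26, adjusted p = 0.56). The highest fitted value, 3.39 in ENSG00000265681.5, rests on 1 and 0 counts at T0 and 17 and 2 at T20 and has an SE of 3.81.

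Hippuristanol was compared with DMSO in the pulldowns, since DMSO had a single input. No member was called by edgeR (0.0607% of 14839 IDs) or by DESeq2, and 1 member had an unadjusted p under 0.05, against 670 IDs. The median member stood at -0.00 and other IDs at 0.01, and with 1 library left out the difference between them ranged from -0.27 (without DMSO pulldown replicate 1) to 0.12 (without hip pulldown replicate 1). Members were spread to both sides, with 22 above 0, and both hip pulldowns lay below both DMSO pulldowns for 4 members (11.1% of all IDs) and above for 13 (19.1%). The member with the lowest p, ENSG00000136942.13, stood at 63.8 and 112 CPM in DMSO pulldowns and 291 and 176 CPM in hip pulldowns. These groups did not overlap, and the log2 fold change was 1.36 (SE 0.47, unadjusted p = 0.0042, adjusted p = 0.79). ENSG00000163682.14 was the lowest at -0.62 (SE 0.49, adjusted p = 1.0).

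**Figure D5:**
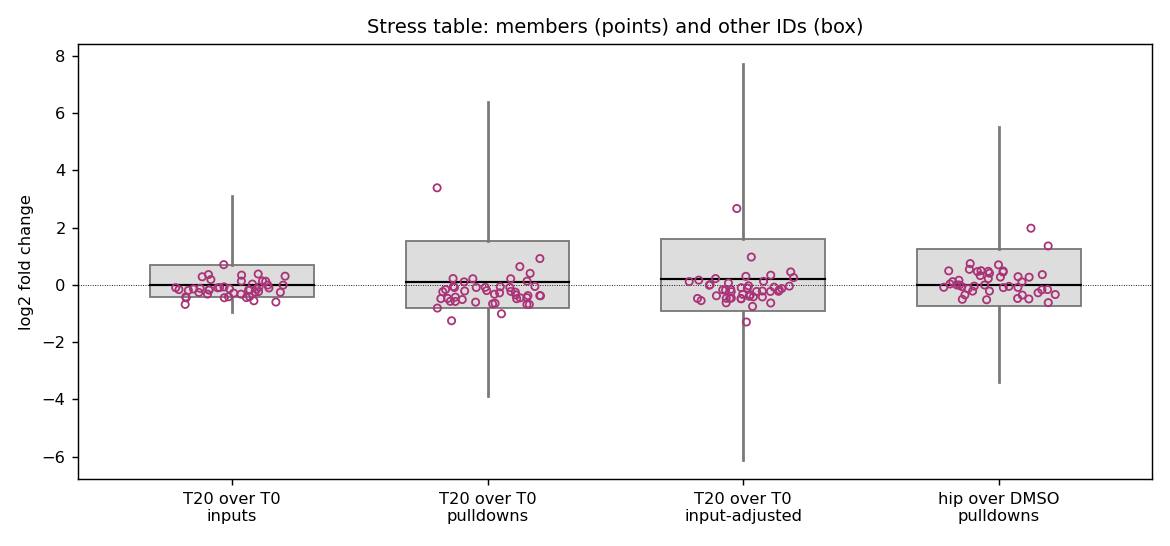
Fitted log2 fold change for the 45 members (points) and other tested IDs (box from lower to upper quartile with the median, lines to the 5th and 95th percentiles) for heat shock (T20 over T0) in inputs, pulldowns and input-adjusted, and for hippuristanol over DMSO in pulldowns. No member is called; most points lie inside the boxes, and the point at 3.39 is the member with 1 and 0 counts at T0.

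Replicates of the stress pulldowns correlated less than those of any other group. A median member had 132 to 301 counts there, against 1419 to 2788 in stress inputs, and replicate pulldowns correlated at 0.613 to 0.730 across tested IDs, against 0.943 to 0.966 for inputs. Over the 45 members alone the pulldown replicates correlated at 0.909 to 0.966.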

How the data were processed

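The authors deposited raw counts per versioned Ensembl gene ID as 2 tables. Per the submitters' processing notes cutadapt, HISAT2 and featureCounts were used with GRCh38; their versions, and the settings for strand and for multiple matches, are not given in the sources read. RefSeq names 1273 RPL pseudogenes, so counts of single members are uncertain. The kit was directional, per the labels, and no molecular identifiers are named there, so amplified copies count as reads.

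The members and lists were chosen with earlier results of these data known. Each table was tested in R 4.3.3 with edgeR 4.0.16 (filterByExpr on the groups, TMM, robust quasi-likelihood F test, 2-sided, Benjamini-Hochberg over all IDs). Comparisons within 1 fraction of the stress table were fitted on that fraction only, and all others on the whole table. Naive replicate pulldowns also differed more than naive inputs, at a chi-square per ID of 3.28 to 9.20 against 1.31 to 1.89. The naive comparisons with GFP in 1 fraction took their spread from both fractions, so the error of pulldowns may be understated there. Log2 CPM used a prior count of 2. DESeq2 1.42.0, library size scaling, no filter, a replicate block, only the libraries compared and each library left out were alternatives. The planned comparisons were also run on counts simulated from the fitted spread, and the comparisons with GFP in 1 fraction were not. The outcome is not given here, so no conclusion about the calls is drawn from it. Named members are, per planned comparison, the 3 highest, the 3 lowest and up to 3 called with the lowest adjusted p. For the added comparisons with GFP in 1 fraction, only up to 3 called members were taken, in pulldowns alone. Those of them whose values show a pattern are described. Some members are also described in comparisons for which this rule does not name them. No table pairs IDs with symbols, so the lists given by symbol (small subunit, other TOP, mitochondrial and assembly genes, cell type markers, roles) could not be applied, and the cell line was not checked against markers. No column of per-sample values was left out. A column name shared by 2 descriptions was read as eIF4A input 2 of the naive cells and, in the stress table, as the DMSO input.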

Additional observations from a re-analysis of the deposited data

Results flagged for a closer look

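The members' share of all counts differed in direction between constructs when pulldown was set against input, and this difference between constructs was not tested. In both eIF4E pulldowns the share was above that of both eIF4E inputs, with means 0.184 percentage points apart, and in both eIF4A pulldowns it was above both inputs, by 0.159 percentage points. In GFP both pulldowns were below both inputs, by -0.161 percentage points between the means. CBX1 and C1 differed the same way as GFP, by -0.120 and -0.169 percentage points. With the 10 highest IDs set aside, all 5 constructs had a lower mean share in pulldowns than in inputs.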

How the results depend on the processing

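Counting error limits the member ENSG00000265681.5, and 2 libraries per group leave each call open to 1 library. Labels do not tie replicate numbers to a shared culture or day, and in the naive table an input and a pulldown with the same number deviated from their group means with correlations of -0.07 to 0.14, so no pairing was assumed. With the replicate number as a block 31, 31, 31, 19 and 15 members were called for pulldown over input in CBX1, C1, GFP, eIF4E and eIF4A, and the block moved no count of members by more than 1.5 times. T0 and T20 inputs correlated at -0.70 between same numbers, and with the numbers crossed 0 members were called there. In the same way hip inputs correlated at -0.79 with T0 inputs and at 0.64 with T20 inputs. Replicates of the stress inputs thus differed along a shared pattern, whose source was not tested. The settings of the naive comparisons against GFP in 1 fraction, the limit on other IDs and the crossed block were chosen after seeing the data. Counts of members called under alternative settings are given throughout without the share of all IDs called in the same fit. They show how far the counts depend on a setting and are not read as results about the members. Of the alternative values, 379 of the comparisons' counts and medians stayed within a set range, 69 moved beyond it and 5 were counted as turned in direction. Causes were not tested. The range was 1.5 times for counts and the spread between replicates for medians. A median within it was not counted as turned even where its sign changed, as for T20 over T0 inputs (-0.13 to 0.03 with 1 library left out).

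With library sizes used instead of TMM, the members called for pulldown over input were 6 in CBX1, 17 in C1 and 13 in GFP, all lower, and 13 in eIF4E and 8 in eIF4A, all higher. The same setting gave 5 for eIF4E over GFP input-adjusted, 31 for eIF4E over GFP in pulldowns, and 1 each for eIF4E and eIF4A over GFP in inputs. Named members whose sign turned with it, for pulldown over input, were ENSG00000145592.12 (0.27) and ENSG00000116251.8 (0.32) in CBX1 and ENSG00000116251.8 (0.13) in C1. In eIF4E they were ENSG00000188846.12 (0.82), ENSG00000116251.8 (0.83) and ENSG00000167526.12 (0.13). In eIF4A they were ENSG00000147604.12 (0.65), ENSG00000188846.12 (0.74), ENSG00000100316.14 (0.77), ENSG00000130255.11 (0.0095) and ENSG00000108298.8 (0.18). Input-adjusted over GFP they were ENSG00000265681.5 (0.26), ENSG00000136942.13 (0.53) and ENSG00000177600.7 (0.56) in eIF4E, and ENSG00000136942.13 (0.34) and ENSG00000156482.9 (0.48) in eIF4A.

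Without the count filter, signs turned for pulldown over input in ENSG00000145592.12 in C1 (-0.030), ENSG00000188846.12 (0.019) and ENSG00000116251.8 (0.025) in eIF4E and ENSG00000100316.14 in eIF4A (0.013), and for ENSG00000177600.7 in eIF4E over GFP input-adjusted (0.017). That setting called 3 members for eIF4E and 2 for eIF4A over GFP in inputs, and DESeq2 called 12 for the latter. With the libraries compared alone, 0 members were called for C1 and 33 for eIF4A pulldown over input, and 0 for C1 pulldowns, 4 for C1 inputs, 22 for eIF4E inputs and 26 for eIF4A inputs over GFP. ENSG00000100316.14 then stood at -0.000644 in eIF4E pulldown over input. Without input correction, the comparison with GFP called 3 members in C1, 17 in eIF4E and 18 in eIF4A, where the member median lay 0.62 above that of other IDs. ENSG00000265681.5 (0.32), ENSG00000136942.13 (0.34) and ENSG00000177600.7 (0.48) in eIF4E and ENSG00000136942.13 (0.26) and ENSG00000156482.9 (0.18) in eIF4A turned sign with it. Against other IDs whose mean log2 CPM was 5 or more, the member median stood higher by 0.25 for CBX1 over GFP input-adjusted, 0.22 for C1 pulldowns, 0.44 for eIF4E inputs and, with its sign turned, 0.12 for T20 over T0 inputs.

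Leaving out each library in turn gave 8 to 19 called members in CBX1, 11 to 39 in C1, 13 to 18 in GFP, 1 to 23 in eIF4E and 0 to 7 in eIF4A for pulldown over input. Over GFP it gave 0 to 5 for C1 input-adjusted, and in pulldowns alone 0 to 8 for eIF4A, 3 to 19 for eIF4E, 0 to 12 for C1 and 0 to 1 for CBX1, and 1 to 2 for eIF4E and 0 for eIF4A in inputs. For T20 over T0 in pulldowns it gave 0 to 1. The member median minus that of other IDs ranged from -0.98 to -0.56 for C1 pulldown over input, -0.087 to 0.085 for CBX1 over GFP input-adjusted, -0.14 to 0.23 for C1 pulldowns over GFP and 0.25 to 0.42 for eIF4E inputs over GFP. It ranged from -0.80 to -0.28 for T20 over T0 pulldowns, -0.76 to -0.038 input-adjusted and -0.27 to 0.12 for hip over DMSO. Named members that changed sign for pulldown over input ranged from -0.42 to 0.081 (ENSG00000145592.12) and -0.17 to 1.08 (ENSG00000265681.5) in CBX1, -0.54 to 0.32 (ENSG00000116251.8) and -0.20 to 0.18 (ENSG00000145592.12) in C1, and -0.76 to 0.088 (ENSG00000265681.5) in GFP. In eIF4E it was -0.22 to 0.10 (ENSG00000188846.12), -0.15 to 0.089 (ENSG00000116251.8) and -0.040 to 0.10 (ENSG00000100316.14), and in eIF4A -0.32 to 0.071 (ENSG00000147604.12) and -0.12 to 0.031 (ENSG00000100316.14). Input-adjusted over GFP it was -1.74 to 0.22 for ENSG00000156482.9 in C1. In eIF4E over GFP it was -0.78 to 0.14 (ENSG00000265681.5), -0.63 to 0.27 (ENSG00000136942.13) and -0.53 to 0.26 (ENSG00000177600.7), and in eIF4A -1.15 to 1.65 (ENSG00000265681.5) and -0.64 to 0.88 (ENSG00000156482.9). For T20 over T0 it was -0.018 to 0.93 in inputs (ENSG00000142676.11) and -0.20 to 1.19 input-adjusted (ENSG00000161970.11), and for hip over DMSO -0.99 to 0.28 (ENSG00000161970.11).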

Other observations

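In the stress table pulldown over input was not tested, and the direction for the members depended on the measure. By group mean, the lead of the members over other IDs was larger in pulldowns than in inputs in every condition. It was 4.80 against 4.32 at T0, 4.26 against 4.15 at T20, 4.56 against 3.61 in DMSO and 4.39 against 3.63 in hip (median log2 CPM of members minus that of other IDs). At T20 the fractions overlapped, with 4.38 and 4.14 in pulldowns and 4.24 and 4.05 in inputs. The other IDs were the 16633 that passed the filter on both fractions together, against 14794 on pulldowns alone. The effect of that choice on the lead was not tested. The members' share of counts without the 10 highest IDs was lower in pulldowns at T0 (2.60% against 2.98%) and T20 (2.33% against 2.98%). It was 2.20% against 2.15% in DMSO and 2.20% against 2.22% in hip. Their share of all counts was lower in pulldowns in every condition, 1.59% against 2.80% at T0, 1.70% against 2.78% at T20, 2.35% against 3.19% at T4, 1.59% against 2.08% in DMSO and 1.503% against 2.13% in hip. Pulldowns there had 707356 to 1221213 counts and inputs 4540426 to 7782943. At T0 the member median was 8.08 and 8.30 log2 CPM in pulldowns against 8.38 and 8.38 in inputs. Other IDs stood at 3.46 and 3.33 against 4.15 and 3.98. The member median was also lower in pulldowns at T20, and higher at T4, in DMSO and in hip. In the naive table eIF4A cells, unstressed like T0, had a smaller mean lead in pulldowns, 2.99 against 3.64. The reason for the difference was not tested.

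T4, with 1 library of each fraction and no replicate check, had the largest lead of the members in that table in both fractions by group mean, 5.35 in the pulldown and 4.39 in the input. Its shares without the 10 highest IDs were 3.50% and 3.40%. In inputs the DMSO and hip libraries had a smaller lead (3.51 to 3.75) than T0, T20 and T4 (4.05 to 4.40), and a share of 2.10% to 2.33% against 2.83% to 3.40%. No comparison of the design joins these 2 sets of inputs.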
